A study of Mus musculus with 8 samples.

Results

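Apoe, Cav2, Lhfp, Bambi and Hyal3 are genes of lipoproteins, of membrane pits called caveolae, of the tissue stroma and of its matrix. They were measured in the submandibular gland of mice fed normal chow or made obese by diet. Each has 1 probe with 10 scattered spots, found by its RefSeq accession (NM_009696 for Apoe, NM_016900 for Cav2, NM_175386 for Lhfp, NM_026505 for Bambi and NM_178020 for Hyal3). They are 5 of 46 genes that could be named on an array of 60823 probes. The genes were chosen by values of the comparison of obese with control glands itself, namely its p-values and differences. By unadjusted p among the 44 named genes tested, Lhfp ranked 1, Cav2 ranked 3, Bambi ranked 6, Hyal3 ranked 24 and Apoe ranked 37. Their differences between the diets are therefore a description. The 95% intervals beside them show the error of each value and, like the counts of p-values, support no finding about these genes.

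The study hybridised 8 one-colour arrays with RNA from male mice of 20 weeks. The 4 Ctrl samples came from mice on normal chow and the 4 DIO samples from mice fed a high-fat diet until obese (DIO stands for diet-induced obesity). All 8 are whole submandibular gland, and the labels give no strain, no length of diet and no animal number. In whole tissue, fewer cells of a type and less RNA per cell cannot be told apart. A barcode field in the file headers begins with 1 on every Ctrl array and with 2 on every DIO array. Whatever that part of the field records, such as a place on the slide, cannot be told apart from diet. The second part of that field equals the replicate number on all 8 arrays.

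The submandibular gland secretes saliva from acinar cells through ducts, which are wrapped in stroma with fibroblasts, vessels, nerves and immune cells. Apolipoprotein E coats lipoproteins and is the ligand through which receptors of the low-density lipoprotein family take them up. Macrophages and liver cells are well-known sources of it. Caveolins shape caveolae, which are plentiful in endothelial cells, adipocytes and fibroblasts. BAMBI resembles a receptor of the TGF-beta family but lacks the kinase domain, and so dampens that signal. Hyaluronidases cut hyaluronan, a large sugar polymer of the stromal matrix.

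The makeup of the tissue could not be read from these arrays through named probes. Of 154 genes in 18 lists of pathway genes and cell type markers, 9 had a named probe, and 5 of those are the genes described here. The lists of fibroblast, adipocyte, endothelial, macrophage, acinar, duct and myoepithelial markers had 0 named probes. Likewise Cav2 was the only 1 of 11 caveolar genes, Apoe of 19 genes of lipoprotein and cholesterol transport, and Bambi of 29 genes of BMP and TGF-beta signalling. Hyal3 was the only 1 of 15 hyaluronan genes and Lhfp of 6 genes of its family. In each of these 5 lists the single gene tested is 1 of those described here, and 0 passed an adjusted p of 0.05 in either direction in limma, as did 0 of 54187 tested probes (0%). This says nothing of the rest of each list. Other members may lie among the probes that have no gene name here.

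Ctrl array 2 stood apart from the rest. Across tested probes, which are not independent replicates, its correlation with the other arrays was 0.941 to 0.958. Among those other arrays it was 0.981 to 0.990. Of 48 accession probes tested, 10 lay over 2-fold from the mean of the other Ctrl arrays on it, against at most 3 on any other array within its own group. Over all 54187 tested probes, 13.3% lay over 2-fold from that mean on Ctrl array 2, against 1.48% to 4.62% on the other arrays. Results below are given with and without it.

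All 5 probes were measured well. Every spot of each was well above background on all 8 arrays and 0 spots were saturated. For Apoe, the median raw signal of the spots lay between 17827 on DIO array 3 and 46741 on Ctrl array 2, over a local background of at most 29. For Bambi, it lay between 115 on DIO array 4 and 328.5 on Ctrl array 2, over a local background of at most 27.5. Levels are given below as the log2 signal minus that of the 75th percentile of non-control spots on the same array. A level of 0 lies at that percentile, and a difference of 1 is 2-fold. Levels of different probes depend on their binding and were not compared.

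The spots of a probe that were not flagged as outliers agreed closely, so the spread between arrays was far larger than the error of reading a probe. Of 10 spots, 7 were used for Hyal3 on Ctrl array 2 and 8 for Lhfp on Ctrl array 1. For Lhfp on Ctrl array 4 and DIO array 2, and Hyal3 on DIO array 3, 9 were used. All 10 were used in every other case. The standard error of the spot mean was 0.010 to 0.019 for Cav2, 0.012 to 0.025 for Lhfp, 0.0033 to 0.021 for Apoe, 0.021 to 0.039 for Bambi and 0.011 to 0.021 for Hyal3. The SD between arrays within a group, pooled over both groups, was 8.70 times the median of these errors for Cav2 and 42.7 times for Apoe. It was 11.9 times for Lhfp, 18.9 times for Bambi and 31.0 times for Hyal3. This error covers the spots of an array and not the extraction or labelling of the sample.

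Cav2 encodes caveolin-2, which joins caveolin-1 in the coat of caveolae. Its level in Ctrl was 1.43 on array 1, 1.77 on array 2, 1.54 on array 3 and 1.49 on array 4. In DIO it was 1.35 on array 1, 1.45 on array 2, 1.21 on array 3 and 1.32 on array 4. The groups overlapped through a single pair of arrays, DIO array 2 above Ctrl array 1. The Ctrl mean was 1.56 ± 0.15 and the DIO mean 1.33 ± 0.10 (SD, n = 4 each). The log2 difference was -0.22 (95% interval -0.50 to 0.054), or 0.857-fold, and -0.15 without Ctrl array 2.

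Lhfp, also named Lhfpl6, encodes a membrane protein of the tetraspan LHFPL family and is known as a fusion partner of a chromatin gene in lipoma. In Ctrl its level was 0.59 on array 1, 1.07 on array 2, 0.56 on array 3 and 0.77 on array 4. In DIO its level was 0.22 on array 1, 0.70 on array 2, 0.21 on array 3 and 0.26 on array 4. DIO arrays 1, 3 and 4 lay below every Ctrl array, while DIO array 2 lay inside the Ctrl range. The Ctrl mean was 0.74 ± 0.23 and the DIO mean 0.35 ± 0.24 (SD, n = 4 each), a log2 difference of -0.40 (95% interval -0.78 to -0.015), or 0.760-fold. It was -0.29 (95% interval -0.64 to 0.061) without Ctrl array 2 and -0.51 (95% interval -0.88 to -0.15) without DIO array 2. The interval also spanned 0 without Ctrl array 4 (-0.84 to 0.057) or DIO array 1 (-0.79 to 0.086). It did so without DIO array 3 (-0.79 to 0.090) or DIO array 4 (-0.81 to 0.078), and with array weights (-0.66 to 0.015). Of the 8 fits without an array, 3 had an unadjusted p under 0.05 in limma.

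Cav2 and Lhfp are shown by the 250 bases before their start sites, on the + strand of GRCm38.p6 (RefSeq). Their levels, which include the diet difference, had the highest correlation of all pairs of the 5 genes. As deviations from the group means, their correlation of 0.83 was below that of Apoe with Bambi (0.93) and with Cav2 (0.88). The Cav2 stretch is chr6:17280935-17281184 and the Lhfp stretch is chr3:53041297-53041546. Capitals mark matches on either strand to the motifs searched. These were the TATA box (TATAAA), the CCAAT box (CCAAT), the GC box (GGGCGG), the E-box (CACGTG), the paired Smad site (GTCTAGAC) and the direct repeat of nuclear receptors with 4 bases between its parts.
Cav2: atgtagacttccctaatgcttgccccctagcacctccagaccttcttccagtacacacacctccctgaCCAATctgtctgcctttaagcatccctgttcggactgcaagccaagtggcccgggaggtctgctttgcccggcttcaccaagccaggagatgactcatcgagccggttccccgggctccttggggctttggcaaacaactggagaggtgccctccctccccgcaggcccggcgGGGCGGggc
Lhfp: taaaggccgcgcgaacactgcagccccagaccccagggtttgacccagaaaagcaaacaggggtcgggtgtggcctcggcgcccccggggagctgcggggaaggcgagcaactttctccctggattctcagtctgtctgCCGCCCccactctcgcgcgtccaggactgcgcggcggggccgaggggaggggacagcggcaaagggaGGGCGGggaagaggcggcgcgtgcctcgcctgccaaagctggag
Both stretches hold the GC box GGGCGG, which lies 9 to 4 bases before the start in Cav2. In Lhfp it lies 44 to 39 bases before the start and, on the opposite strand, 111 to 106 bases before it. The Hyal3 stretch, which overlaps the genes Hyal1 and Naa80, also holds it, 51 to 46 bases before its start. No Apoe stretch holds it, and no start site was listed for Bambi. A link of these motifs with the levels was not tested. Cav2 also holds CCAAT, 182 to 178 bases before the start. Of 32851 such stretches in the table, 32.7% hold GGGCGG and 33.8% hold CCAAT. G and C made up 62% of the Cav2 stretch and 69.6% of the Lhfp stretch, against a median of 52.4% over all stretches. The TATA box is held by 12.4% of stretches, the E-box by 6.02%, the paired Smad site by 0.167% and the direct repeat by 0.0152%, and none of them is in these 2 stretches.

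Bambi encodes the inhibitory pseudoreceptor described above. Its level in Ctrl was -1.02 on array 1, 0.16 on array 2, -1.27 on array 3 and -1.38 on array 4. In DIO the level was -1.33 on array 1, -1.16 on array 2, -1.50 on array 3 and -1.63 on array 4. Ctrl array 2 lay above every other array, and the other Ctrl arrays overlapped DIO arrays 1 and 2. The Ctrl mean was -0.88 ± 0.71 and the DIO mean -1.41 ± 0.21 (SD, n = 4 each). The difference of -0.53 (95% interval -1.26 to 0.19), or 0.692-fold, became -0.19 (95% interval -0.54 to 0.17) without Ctrl array 2. With normexp background correction it was -0.37 with all arrays and -0.11 without that array, and with array weights in limma it was -0.26.

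Apoe lay at 6.45 on array 1, 7.42 on array 2, 6.31 on array 3 and 5.89 on array 4 of Ctrl. It lay at 6.42 on array 1, 6.78 on array 2, 5.99 on array 3 and 6.36 on array 4 of DIO. All 4 DIO arrays fell inside the Ctrl range. The Ctrl mean was 6.52 ± 0.65 and the DIO mean 6.39 ± 0.32 (SD, n = 4 each), a difference of -0.13 (95% interval -0.84 to 0.59), or 0.917-fold. The sign turned without Ctrl array 2, to 0.17 (95% interval -0.31 to 0.66), and without DIO array 3, to 0.0071. It also turned with array weights in limma, to 0.087 (95% interval -0.44 to 0.62). With quantile normalization it was -0.30 (95% interval -1.14 to 0.54) and with cyclic loess -0.29.

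Hyal3 encodes a member of the hyaluronidase family. On the Ctrl arrays its level was 0.99 on array 1, -0.52 on array 2, 0.35 on array 3 and 0.80 on array 4. On the DIO arrays it was 0.84 on array 1, 0.93 on array 2, 0.30 on array 3 and 0.52 on array 4. Unlike the other 4 genes, Hyal3 was at its lowest on Ctrl array 2. The Ctrl mean was 0.40 ± 0.67 and the DIO mean 0.65 ± 0.29 (SD, n = 4 each), a difference of 0.24 (95% interval -0.48 to 0.96), or 1.18-fold. Without Ctrl array 2 the value was -0.066 (95% interval -0.54 to 0.41). Array weights gave 0.011.

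**Figure D1:**
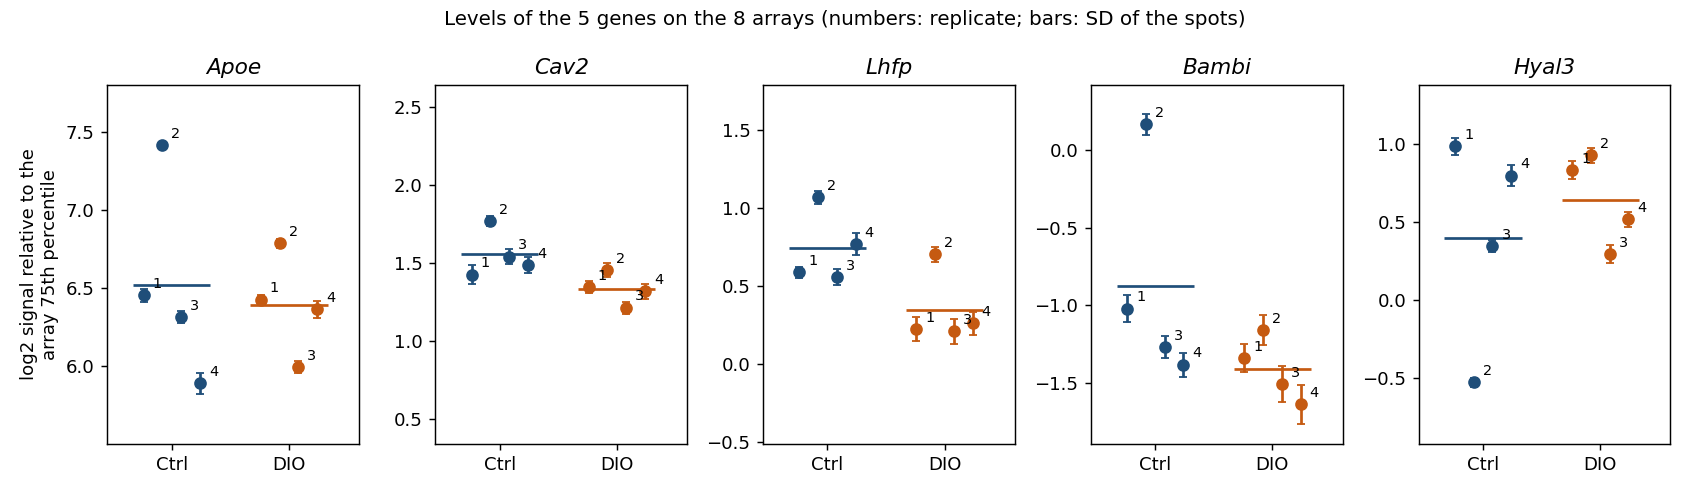
Level of each gene on each array, as log2 signal relative to the array's 75th percentile (y axis, 2.3 log2 units in every panel), for Ctrl (blue) and DIO (orange). Points are arrays with their number, bars the SD of the spots and lines the group means; Ctrl array 2 is the highest array for Apoe, Cav2, Lhfp and Bambi and the lowest for Hyal3.

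Together, 4 of the 5 genes had a lower mean in DIO and Hyal3 a higher mean, though Apoe and Hyal3 each turned sign without Ctrl array 2. Their median difference was -0.22, beside -0.025 for the 44 named genes and -0.023 for all tested probes. Among the named genes 23 were lower and 21 higher. Of the 5 genes, 0 passed an adjusted p of 0.05 in limma. At an unadjusted p under 0.05 there was 1, Lhfp, where 2441 probes (4.5%) passed. That count was 4396 without Ctrl array 3, 1321 without DIO array 1 and 1613 without DIO array 3. The groups did not overlap for 0 of the 5 genes, and for 1550 probes (2.86%) of all those with a value on each array. Because these genes were chosen with this contrast in view, neither their median nor their counts are read against those of all probes. Arrays of the same number also share the second part of the barcode field. Between them, DIO was lower in all 4 for Cav2, Lhfp and Bambi and in 3 of 4 for Apoe and Hyal3. These counts are a description too and support no finding about these genes. The share of all tested probes with such counts is not given, and the labels name no pairs.

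**Figure D2:**
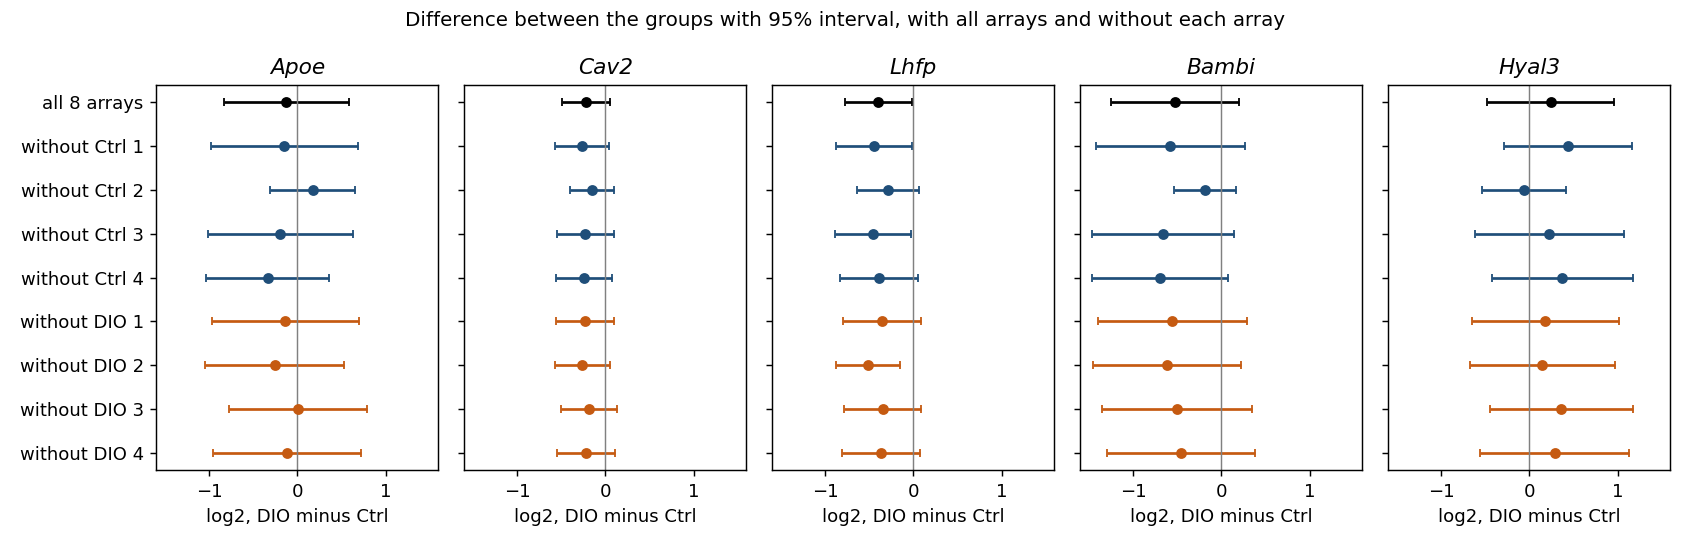
Log2 difference DIO minus Ctrl for each gene (x axis) with its 95% limma interval, for all 8 arrays (black) and without each Ctrl array (blue) or DIO array (orange) in turn. Cav2, Lhfp and Bambi stay below 0 in each of these fits, while Apoe reaches 0.17 and Hyal3 -0.066 without Ctrl array 2.

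The genes differed in how much they varied between arrays of the same diet. From the lowest to the highest of the 8 arrays, Bambi spanned 3.47-fold, Apoe 2.88-fold and Hyal3 2.85-fold. Lhfp spanned 1.81-fold and Cav2 1.47-fold. By the pooled SD within groups, Bambi ranked 6, Hyal3 7 and Apoe 8 of 48 accession probes from the most variable, and Lhfp ranked 28 and Cav2 46. These SDs were 0.52 for Bambi, 0.52 for Hyal3, 0.51 for Apoe, 0.24 for Lhfp and 0.13 for Cav2, where the median accession probe had 0.26. Without Ctrl array 2, Apoe ranked 6 and Hyal3 8, while Bambi fell to 25, Lhfp stood at 26 and Cav2 at 47. The spans without it were 1.86-fold for Apoe, 1.61-fold for Hyal3, 1.53-fold for Bambi, 1.47-fold for Lhfp and 1.25-fold for Cav2.

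On Ctrl array 2, Bambi lay 2.61-fold and Apoe 2.29-fold above the mean of the other Ctrl arrays, and Hyal3 at 0.425-fold of it. Lhfp was at 1.35-fold and Cav2 at 1.22-fold. Of all tested probes, 96.4% had a lower difference on this array than Bambi and 95.5% a lower one than Apoe. The share was 4.53% for Hyal3, 79.7% for Lhfp and 71.6% for Cav2. In log2, Apoe's difference of 1.20 became 1.55 with quantile and 1.57 with cyclic loess normalization. Cav2's 0.29 became 0.41 with cyclic loess, and Bambi's 1.38 became 1.06 with normexp.

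Of the 4 named marker genes of other cell types, Mzb1 and Chgb lay far from the other Ctrl arrays on Ctrl array 2. The log2 level of Mzb1, a chaperone-linked protein of B and plasma cells, was 2.62 there, 3.70 above the mean of the other Ctrl arrays. Chgb, of neuroendocrine granules, was 1.90 above that mean. Mbp, a myelin protein, differed by 0.46 and the T cell cytokine Il2 by -0.41, both less than the SD of 0.78 that all tested probes had on this array. They were the only 1 of 8 B and plasma cell markers, 1 of 4 T cell markers and 2 of 6 nerve markers with a named probe. Their part in the levels of Apoe, Bambi and Hyal3 was not tested.

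DIO array 2 was the highest DIO array for all 5 genes. It lay above the mean of the other DIO arrays by 0.52 for Apoe, 0.47 for Lhfp, 0.38 for Hyal3, 0.34 for Bambi and 0.16 for Cav2, in log2. Of all tested probes, 95.8% had a lower difference on DIO array 2 than Apoe and 94.7% a lower one than Lhfp. The share was 91.7% for Hyal3, 89.9% for Bambi and 77.2% for Cav2. DIO array 3 was the lowest for Apoe, Cav2, Lhfp and Hyal3, and DIO array 4 for Bambi.

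**Figure D3:**
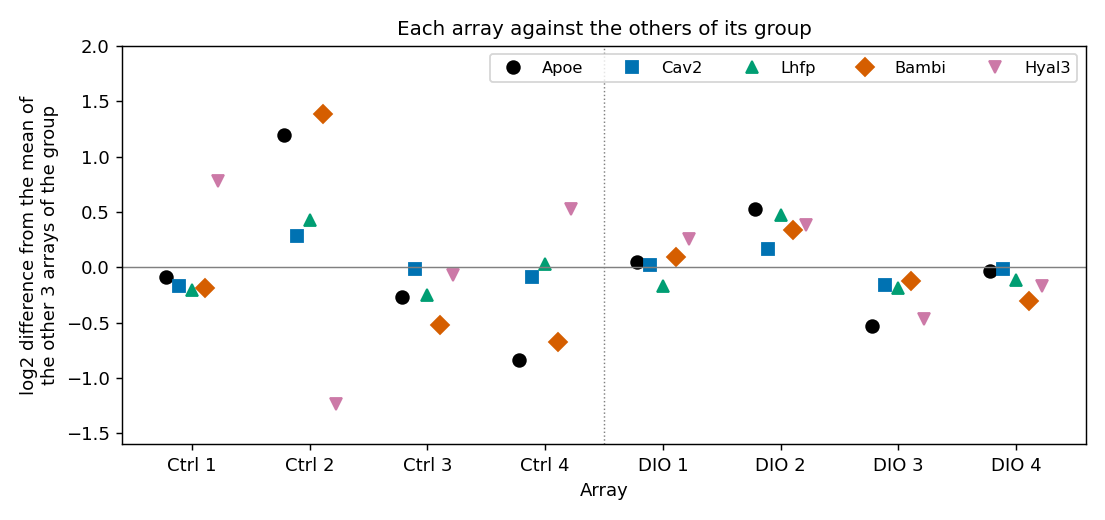
Log2 difference of each array (x axis) from the mean of the other 3 arrays of its group, for the 5 genes. On Ctrl array 2, Bambi (1.38) and Apoe (1.20) lie far above 0 and Hyal3 (-1.24) far below, and on DIO array 2 all 5 genes lie between 0.16 and 0.52.

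Over the 8 arrays, r was above 0 for all 6 pairs among Apoe, Cav2, Lhfp and Bambi, and 4 of them passed by r, but 0 passed by rho and 0 as deviations from the group means. The levels include the diet difference on which the genes were chosen. The p-values of correlations between levels are therefore a description and support no finding about these genes. Pearson's r and Spearman's rho were computed for all 10 pairs of the 5 genes, with exact two-sided permutation tests and p-values adjusted over the 10 pairs. By levels, the closest pair was Cav2 and Lhfp, with r = 0.92 (exact permutation p = 0.00188, adjusted 0.0188). Its rho was 0.83 (exact permutation p = 0.0154, adjusted 0.154). The 3 other pairs past an adjusted p of 0.05 by r all held Bambi. They were Apoe and Bambi (r = 0.86, exact p = 0.0163, adjusted 0.0407), Cav2 and Bambi (r = 0.86, exact p = 0.0108, adjusted 0.0360) and Lhfp and Bambi (r = 0.80, exact p = 0.00967, adjusted 0.0360). Their rho was 0.76 (exact p = 0.0368, adjusted 0.184), 0.69 (exact p = 0.0694, adjusted 0.231) and 0.64 (exact p = 0.0962, adjusted 0.240). By rho, 0 of 10 pairs passed after adjustment, and 2 had an unadjusted exact permutation p under 0.05.

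The r of each of these 4 pairs fell without Ctrl array 2, least for Cav2 and Lhfp. Without the 2 arrays farthest from the median of the first gene, r was 0.80 for Cav2 and Lhfp (exact p = 0.0667), 0.56 for Apoe and Bambi (exact p = 0.231), 0.47 for Cav2 and Bambi (exact p = 0.350) and 0.53 for Lhfp and Bambi (exact p = 0.297). Ctrl array 2 was among the arrays left out each time. Without Ctrl array 2 alone, 0 of 10 pairs passed by r after adjustment. The r was then 0.83 for Cav2 and Lhfp (exact p = 0.0258, adjusted 0.258), the only pair with an unadjusted p under 0.05, 0.50 for Apoe and Bambi, 0.57 for Cav2 and Bambi and 0.61 for Lhfp and Bambi. Leaving out other arrays moved the count of 4 pairs as well, to 6 without Ctrl array 4, 3 without Ctrl array 1, 2 without DIO array 4, 1 without Ctrl array 3 or DIO array 2, and 0 without DIO array 1 or 3. There the r of the 4 pairs stayed high, at 0.83 to 0.93 without DIO array 1 and 0.79 to 0.90 without DIO array 3.

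The remaining pairs among these 4 genes, Apoe with Cav2 (r = 0.72, exact p = 0.0563, adjusted 0.113; rho = 0.31, exact p = 0.462, adjusted 0.770) and Apoe with Lhfp (r = 0.61, exact p = 0.102, adjusted 0.167; rho = 0.40, exact p = 0.327, adjusted 0.654), did not pass. Without the 2 farthest arrays, Ctrl arrays 2 and 4, their r was 0.59 (exact p = 0.194) and 0.70 (exact p = 0.0806).

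Taken as deviations from the group means, which removes the diet difference, r was higher than over the levels for the pairs of Apoe and lower for the others among these 4 genes. It was 0.93 for Apoe and Bambi (exact permutation p = 0.0104, adjusted 0.0781), 0.88 for Apoe and Cav2 (exact permutation p = 0.0156, adjusted 0.0781) and 0.72 for Apoe and Lhfp. It was 0.83 for Cav2 and Lhfp (exact permutation p = 0.0313, adjusted 0.104), 0.82 for Cav2 and Bambi and 0.72 for Lhfp and Bambi. None of the 10 pairs passed after adjustment on this measure, and 3 had an unadjusted exact permutation p under 0.05.

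The r of Hyal3 with each of the other 4 genes was below 0 with all arrays and above 0 once Ctrl array 2 was left out, and none of these values passed after adjustment. Over 8 arrays its r was -0.68 with Bambi (exact p = 0.117, adjusted 0.167; rho = 0.14, exact p = 0.752, adjusted 0.836), -0.56 with Cav2 (exact p = 0.158, adjusted 0.194; rho = -0.19, exact p = 0.665, adjusted 0.836), -0.55 with Apoe (exact p = 0.174, adjusted 0.194; rho = 0.17, exact p = 0.703, adjusted 0.836) and -0.41 with Lhfp (exact p = 0.334, adjusted 0.334; rho = 0.024, exact p = 0.977, adjusted 0.977). Without Ctrl array 2, r was 0.65 with Bambi (exact p = 0.129), 0.33 with Cav2 (exact p = 0.471), 0.48 with Apoe (exact p = 0.285) and 0.49 with Lhfp (exact p = 0.254), with an adjusted p of 0.407 to 0.589. Without the 2 arrays farthest from the median of the other gene, r was 0.67 with Bambi (exact p = 0.158), -0.19 with Cav2 (exact p = 0.722), 0.79 with Apoe (exact p = 0.0167) and 0.28 with Lhfp (exact p = 0.608). Over the 7 other arrays and as deviations from the group means, all 10 pairs had an r above 0, from 0.34 to 0.78, and the smallest adjusted exact permutation p was 0.428.

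**Figure D4:**
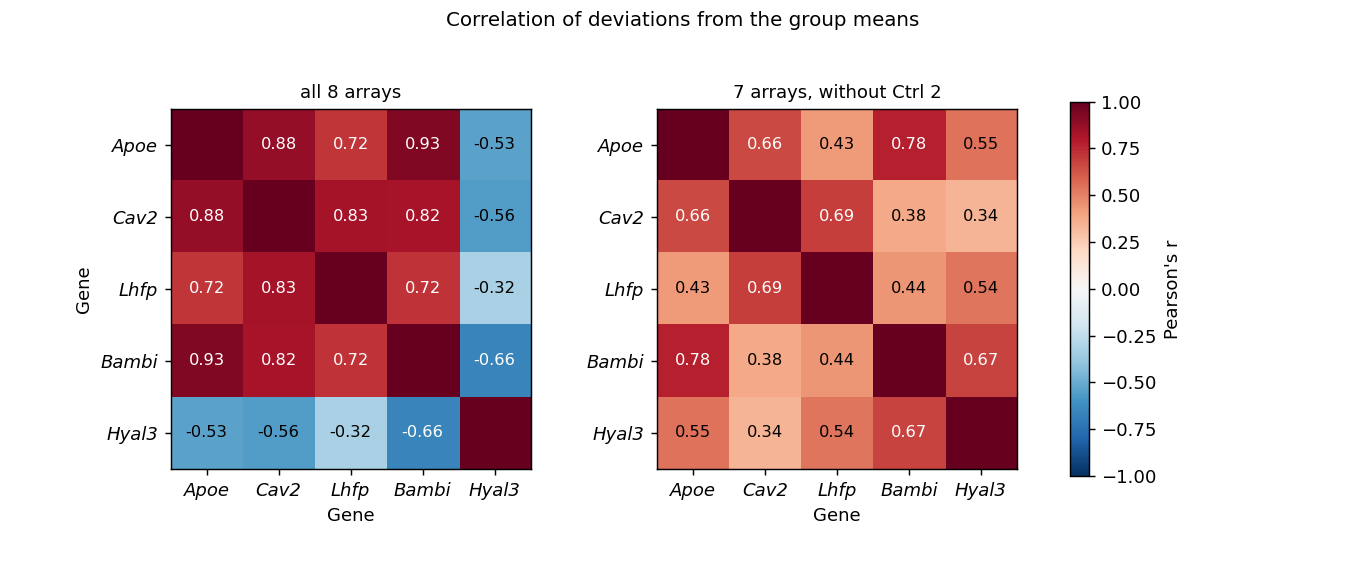
Pearson's r between the 5 genes, from deviations from the group means, over all 8 arrays (left) and over 7 arrays without Ctrl array 2 (right); red is positive and blue negative. The row of Hyal3 runs from -0.66 to -0.32 on the left and from 0.34 to 0.67 on the right.

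Among the other 39 named genes tested, the pattern most like that of each gene was sought by r of the deviations from the group means over 8 arrays, as a description. For Lhfp it was Chgb, with r = 0.97, and 0.96 without Ctrl array 2. Mbp (0.86, and 0.81 without that array) and Alkbh4, a demethylase (0.85 and 0.74), came next. Chgb and Mbp were 2 of the 6 nerve and Schwann cell markers, and the other 4 had no named probe. Like Lhfp, Chgb was at its highest DIO level on DIO array 2, at 0.29, and lay between -2.65 and -2.16 on the other DIO arrays. Both values of r for Lhfp and Chgb include DIO array 2, and r without it is not given. The part of Chgb in the level of Lhfp was not tested.

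For Cav2 the closest were Nup50, of the nuclear pore (0.84, and 0.56 without Ctrl array 2), Gsdmd, a pore former of pyroptosis (0.80 and 0.24), and Mbp (0.77 and 0.70). For Bambi they were Gamt, an enzyme of creatine synthesis (0.92, and 0.49 without Ctrl array 2), Gsdmd (0.91 and 0.085) and Nup50 (0.77 and 0.10). For Apoe they were Gsdmd (0.87 and 0.46), Gamt (0.81 and 0.26) and the potassium channel gene Kcnn2 (0.80 and 0.71). The likeness of Bambi to Gsdmd and Nup50 was thus close to 0 once that array was left out. For Hyal3 the closest were Uhrf1bp1l (0.95, and 0.90 without Ctrl array 2), the odorant receptor gene Olfr166 (0.90 and 0.75) and the cytoskeletal Actb (0.87 and 0.47).

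Among all other tested probes, 2001 (3.69%) had an r above 0.9 with Bambi over 8 arrays, and 444 (0.819%) without Ctrl array 2. For Lhfp the count was 528 (0.974%) and 500 (0.923%) without that array. For Apoe it was 942 (1.74%) and 504 (0.930%), for Hyal3 1018 (1.88%) and 366 (0.675%), and for Cav2 566 (1.04%) and 190 (0.351%). Bambi thus had the most probes with an r above 0.9 among the 5 genes when Ctrl array 2 was included. Over 8 arrays, 1829 probes had an r below -0.9 with Bambi, 810 with Apoe, 744 with Cav2, 711 with Hyal3 and 362 with Lhfp. The counts for a typical tested probe are not given. These probes share the arrays and the scaling, and most have no gene name here.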

How the data were processed

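The authors deposited scanner output for each array. Per the file headers, fluorescence intensity was read in a single channel, with Agilent Feature Extraction 11.0.1.1 named in the submitters' processing notes. The deposited processed intensity has the background removed and spatial trends fitted by that program, per the file headers, and no scaling between arrays is recorded in them. The other deposited values, per the file headers, are raw median intensities of spot and background, and flags of 0 or 1. The header's array build is mm9, so genes were named through the RefSeq table of GRCm38.p6 by accession, and 46 of 50 accession probes matched.

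Log2 processed signals were scaled by each array's 75th percentile over non-control spots. Each probe's spots were averaged, except those with an outlier flag. Of 60823 probes, 54187 were tested, being well above background (50% of spots or more) on at least 4 arrays and measured on at least 3 per group. Groups were compared with limma 3.58.1 in R 4.3.3 (two-sided), adjusted by Benjamini-Hochberg over all tested probes. The fit was tested on simulated data.

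Replicates are separate samples in the labels, with no animals named, so a p-value covers only how far these samples vary, perhaps for technical reasons. The precision is limited by 4 arrays per group. Genes and lists were chosen with earlier results of these data known. Beside the 5 genes, the text names the 3 genes most correlated with each and the named members of the lists. The labels name no pairs, so the numbers were not taken as pairs in the main fit. Same-numbered arrays deviated together with r = 0.29, 0.30, 0.26 and 0.063 for numbers 1 to 4. Arrays of different numbers were not compared in this way, so these values do not decide whether the numbers are pairs. Alternatives covered scaling, background correction, spots, filters, fit settings and leaving out each array.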

Additional observations from a re-analysis of the deposited data

Results flagged for a closer look

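The log2 level of Lhfp on DIO array 2, 0.70, stood apart from the other 3 DIO arrays, which lay between 0.21 and 0.26. Its gap to the next array was 0.897 of the range of the group, above Dixon's 95% critical value of 0.829 for 4 samples. Of 10 groups examined (5 genes in 2 groups), 1 held such an array, where chance gives about 1 in 20. The Lhfp spots on this array read 0.62 to 0.77, with 9 of 10 spots used. On the same array Apoe, Cav2, Bambi and Hyal3 were also at their highest level within DIO, though without standing apart by this measure.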

How the results depend on the processing

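The differences of Cav2, Lhfp and Bambi kept their direction under 18 alternatives that can in general move a difference. Another 4, on filters, the block and variance, cannot. Among the 18, keeping outlier spots could not move Apoe, Cav2 or Bambi, which had no flagged spot. None of the 5 genes passed an adjusted p of 0.05 in any of the 22 (limma, lowest 0.559). Left out in turn, the arrays gave -0.27 to -0.15 for Cav2, -0.51 to -0.29 for Lhfp, -0.70 to -0.19 for Bambi, -0.34 to 0.17 for Apoe and -0.066 to 0.44 for Hyal3. With array weights Apoe turned sign (0.087), and Hyal3 was 0.011 and Bambi -0.26. Alternatives chosen after seeing the data left out Ctrl array 2 with another normalization. Apoe was then 0.088 with quantile, 0.098 with cyclic loess and 0.15 with normexp, and Hyal3 -0.084, -0.072 and -0.071. The count of probes at an unadjusted p under 0.05 was 1321 to 4396 without an array in turn (2441 with all) and 1556 with normexp without Ctrl array 2. With the replicate number as a block it was 4520. A block cannot move a difference here, and Lhfp's interval became -0.66 to -0.13 (adjusted p = 0.559 in limma). The interval became -1.07 to 0.0057 for Bambi, -0.62 to 0.37 for Apoe, -0.50 to 0.057 for Cav2 and -0.53 to 1.02 for Hyal3. The block changed no call among the 5 genes. Normexp was run on median signals.

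The count of 4 gene pairs past the adjusted p by r was 6 with quantile, 1 with cyclic loess, 1 with normexp, and 0 to 6 without an array in turn. The r of Hyal3 then ran from -0.71 to 0.48 with Apoe, -0.82 to 0.33 with Cav2, -0.56 to 0.49 with Lhfp and -0.78 to 0.65 with Bambi. From deviations from the group means without Ctrl array 2, also added later, it was 0.55, 0.34, 0.54 and 0.67. The cause was not tested.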
